A study of Mus musculus with 16 samples.

Results

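The sterol efflux genes under the liver X receptors (LXRs) form a set of 8 genes: Abca1, Abcg1, Abcg5, Abcg8, Nr1h2, Nr1h3, Mylip and Lpcat3. They were chosen as a gene set, with earlier results of these data known. Their regions are those whose summit lay nearest to a transcription start of the gene, within 50 kb, in the mm9 gene models. This gave 106 of the 23511 differential regions of the series, at 7 of the 8 genes. Of the 106 regions, 99 were higher in the knockout (KO) and 7 were higher in the wild type (WT), so that 93.4% were KO-higher, beside 46.5% of all regions. These shares differ in their mix of marks: 91 of the 106 regions were of acetylation, and for H3K4me1 and H3K27me3 only WT-higher regions were available. Over the series, KO-higher and WT-higher regions numbered 7111 and 2510 for H3K27ac, and 1883 and 2151 for H3K9ac.

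Jejunal epithelial cells were taken at postnatal day 12 from C57BL/6 mouse neonates that were wild type (F/FUN in the labels) or carried an intestinal deletion of NCoR1 (ΔIECUN), and 6 histone marks were mapped in them by ChIP-seq. There was 1 library per mark and genotype, 12 in all, besides 4 input libraries that were not analysed here. The deletion is stated to be intestinal, but the sources used here give neither its driver nor the number of pooled neonates, nor the meaning of the letters UN in both genotype names. A contig named UGT1A in the mapped reference held 89 regions of both genotypes' lists. For each mark the authors called regions in one genotype's library with that of the other genotype as its control, so the lists hold differences, called KO-higher and WT-higher here, and a gene without a region may carry the mark equally in both, or not at all.

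LXRs are nuclear receptors that are activated by oxysterols and, as heterodimers with RXR, bind direct repeats of a 6-base unit with 4 bases between them (DR4). Without ligand they recruit corepressors, NCoR1 among them, which bring histone deacetylase activity to the gene. In the small intestine LXR activation is known to raise ABCA1, which loads cholesterol onto HDL at the basolateral side, and the ABCG5 and ABCG8 pair, which returns sterols to the lumen. H3K27ac and H3K9ac are acetylation marks of active enhancers and promoters, H3K4me3 of active promoters, and H3K4me1 is broad over enhancers, while H3K9me3 and H3K27me3 mark repressed chromatin.

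Of the 106 regions, 91 were of the acetylation marks and 15 of the others. KO-higher H3K27ac regions numbered 53 and lay at 6 of the 8 genes, where 11.5% of 21833 protein-coding genes had at least 1 such region. KO-higher H3K9ac regions numbered 38, at 5 of the 8 genes (4% of all genes). KO-higher H3K4me3 regions numbered 8, at 3 genes (0.298% of all genes). The lists differ in length, and the genes held 6.11% of the 131 KO-higher H3K4me3 regions, 2.02% of the 1883 of H3K9ac and 0.745% of the 7111 of H3K27ac. No gene of the set had a WT-higher H3K27ac region (7.53% of all genes) or a WT-higher H3K9ac region (7.58%). The WT-higher regions were 5 of H3K4me1 at 3 genes (7.57% of all genes), 1 of H3K4me3 (15.2%) and 1 of H3K27me3 (0.861%). Neither H3K9me3 list held a region of the set (2.27% of all genes in the KO-higher and 1.08% in the WT-higher list). Abca1, Abcg1, Abcg5, Abcg8 and Lpcat3 carried KO-higher regions of both acetylation marks, as did 3.28% of all genes. Abca1, Abcg5 and Abcg8 also carried KO-higher H3K4me3, a combination found at 27 of 21833 genes (0.124%). Abca1, Abcg5 and Lpcat3 carried both KO-higher acetylation marks together with WT-higher H3K4me1, as did 0.577% of all genes.

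**Figure D1:**
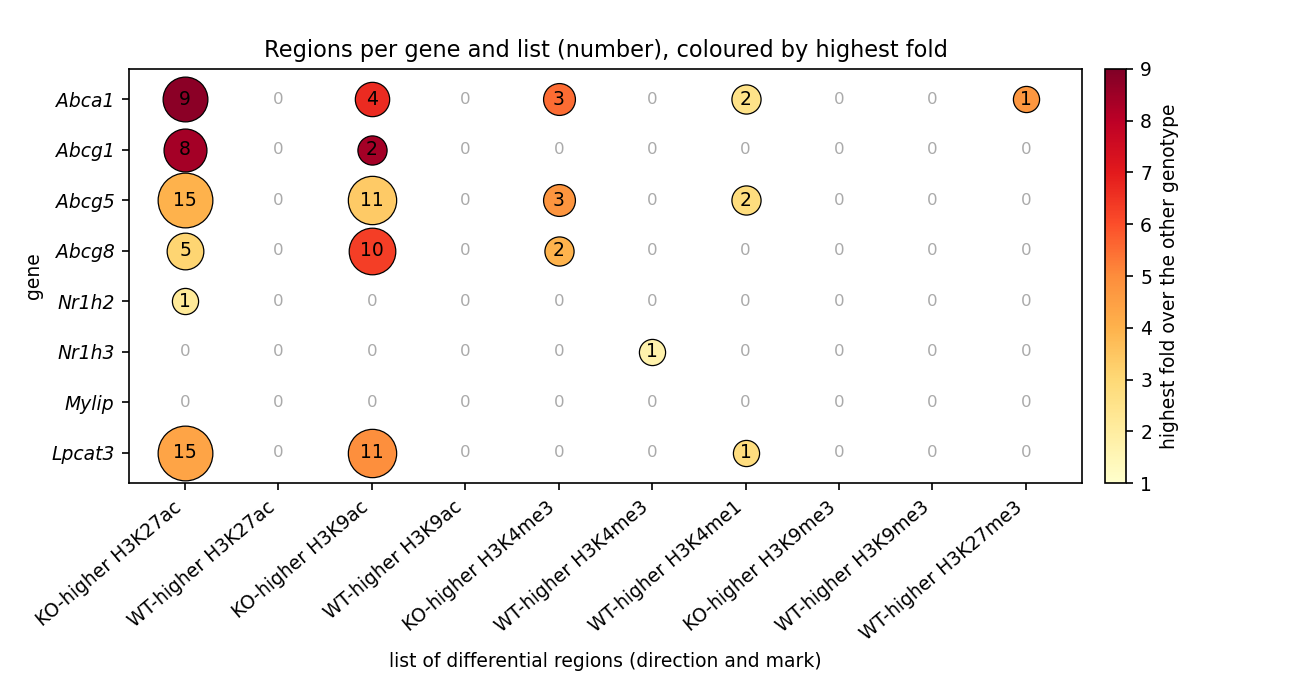
Number of differential regions at each of the 8 genes (rows) in each of the 10 lists (columns), with colour for the highest fold over the other genotype. The KO-higher H3K27ac and H3K9ac columns hold 53 and 38 regions, both columns of WT-higher acetylation are empty, and Mylip has no region in any list.

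Sequencing gave between 27946003 and 47976125 tags a library, and removal of duplicates left between 23925163 and 32444815. The share left was lowest for H3K9ac (64.3% in WT, 56% in KO). The pileup is the number of scaled tags over the summit in the higher library, and the local background is the level in the other genotype's library against which it was called, recovered here from the deposited pileup and fold. The fold is the authors' value, (pileup + 1)/(background + 1). With 1 library per mark and genotype no difference can be set against replicate error, so no test was made, and fewer cells with a mark cannot be told apart from less of the mark per cell. Of the 106 regions, 81 had an authors' −log10 q of at least 5. Summits lay in introns for 76 regions, between genes for 13, in exons for 10 and in UTRs for 7, and 13 of the 99 KO-higher regions lay within 1 kb of the gene's coding start.

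Of the members, Abca1, the transporter that exports cholesterol and phospholipid to lipid-poor apolipoproteins, had the highest H3K27ac fold with regions up to 50 kb from a start (8.80). Within 10 kb its highest was 4.50, below the 4.72 of Abcg1. The gene (ENSMUSG00000015243) lies on the minus strand at chr4:53043659-53172767 of mm9. Its promoter region of H3K27ac, chr4:53171546-53172823, had a pileup of 151 in KO against a local background of 32.7 in WT, a fold of 4.50. H3K9ac differed over nearly the same stretch, chr4:53171538-53172795, with 139 against 20, a fold of 6.67 that ranked 43rd of 1883 in its list. The KO-higher H3K4me3 regions inside the gene began no nearer than 341 bases past the start. H3K4me3 was 97.5 in KO against 41.4 in WT at 0.41 kb from the start, a fold of 2.32. At 0.80 kb it was 80.4 against 23.0, a fold of 3.39. Both acetylation marks were thus higher in the KO library over the start of the gene, and H3K4me3 just inside it. H3K4me1 was listed the other way there, and both of its WT-higher regions at the gene lay inside this stretch. They had 51 in WT against a KO background of 19.6 and 47 against 17.9, folds of 2.52 and 2.53. No KO-higher list of H3K4me1 was available, so the opposite direction could not be seen at any gene.

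Upstream of Abca1 lay a separate group of 8 KO-higher H3K27ac regions, all between genes, from 22.4 to 43.2 kb before the start. Their pileups ran from 19 to 88 in KO and their WT backgrounds from 2.98 to 16.9, with folds from 4.03 to 8.80. The highest, chr4:53197333-53197602, had 34 in KO against 2.98 in WT and ranked 11th of 7111 regions of its list. The region at chr4:53195040-53195282 had 37 against 3.97, a fold of 7.65, and ranked 23rd. Of the 4 KO-higher H3K9ac regions, 2 fell within this group, at folds of 6.17 and 3.32. All 9 H3K27ac regions of Abca1 were among the highest 10% of folds of their list. A KO-higher H3K4me3 region lay 32.4 kb into the gene (26.5 against 4, fold 5.50). The WT-higher H3K27me3 region, 119 kb into the gene, had a fold of 4.72 and a −log10 q of 3.69, and was assigned through the start of a non-coding transcript of the gene.

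A set of 3 stretches of Abca1 is printed because they hold the promoter, an intron site with the same repeats, and the region of highest fold. They are written 5′ to 3′ along the gene, on the minus strand of mm9. Capitals mark an exact 6-base unit or a DR4 match. In the promoter and intron stretches a match has at most 3 mismatches in its 12 repeat bases. In the upstream stretch the limit was 2 mismatches, and matches with 3 are not marked there. The promoter stretch covers the 250 bases before the start, chr4:53172768-53173017. The intron stretch is chr4:53171656-53171855, and the upstream stretch is chr4:53197333-53197602.
Abca1 promoter: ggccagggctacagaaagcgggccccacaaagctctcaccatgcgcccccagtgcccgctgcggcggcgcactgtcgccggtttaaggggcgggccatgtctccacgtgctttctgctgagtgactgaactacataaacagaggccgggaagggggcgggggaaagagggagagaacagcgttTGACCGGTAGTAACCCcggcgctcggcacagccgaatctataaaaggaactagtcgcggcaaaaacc
Abca1 intron: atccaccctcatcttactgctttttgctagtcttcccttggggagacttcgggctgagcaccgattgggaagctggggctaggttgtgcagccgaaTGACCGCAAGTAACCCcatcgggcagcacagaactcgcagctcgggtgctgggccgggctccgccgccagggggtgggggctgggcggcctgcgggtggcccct
Abca1 upstream: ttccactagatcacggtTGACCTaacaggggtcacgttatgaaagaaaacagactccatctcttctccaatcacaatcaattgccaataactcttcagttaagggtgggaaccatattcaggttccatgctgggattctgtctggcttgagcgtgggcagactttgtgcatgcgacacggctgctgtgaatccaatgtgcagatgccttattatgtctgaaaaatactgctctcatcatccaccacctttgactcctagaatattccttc

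The DR4 search used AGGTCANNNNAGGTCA on both strands, and AGGTCANAGGTCA for the related repeat with 1 base between (DR1). A site that reads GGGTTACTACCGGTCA on the other strand began 67 bases before the Abca1 start, with 3 mismatches. It straddled the end of the H3K27ac promoter region, with 11 of its 16 bases outside. At 3 mismatches 20.5% of all promoter windows (250 bases before to 50 after the start) hold a DR4 match, and at 2 mismatches 2.67% do and none of the 8 genes does. This limit of 3 was chosen after the promoter had been looked at. A search for the 12 repeat bases of that site (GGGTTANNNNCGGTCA, both strands) was added as well. The pattern was copied from Abca1, so that its promoter holds it is given, and no other of the 21833 promoter windows did. Along the 19 chromosomes searched (2548220632 bases) there were 35 such sites, of which 3 were nearest to Abca1 and 1 to Abcg1. The second Abca1 site, GGGTTACTTGCGGTCA at chr4:53171744-53171759, lay in the intron inside the KO-higher H3K27ac and H3K9ac promoter regions and inside a WT-higher H3K4me1 region. It differed from the promoter site by A9T and C10G, counted from 1 at the 5′ end of the 16 bases. The third lay 43.9 kb into the gene, in no region of any list.

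**Figure D2:**
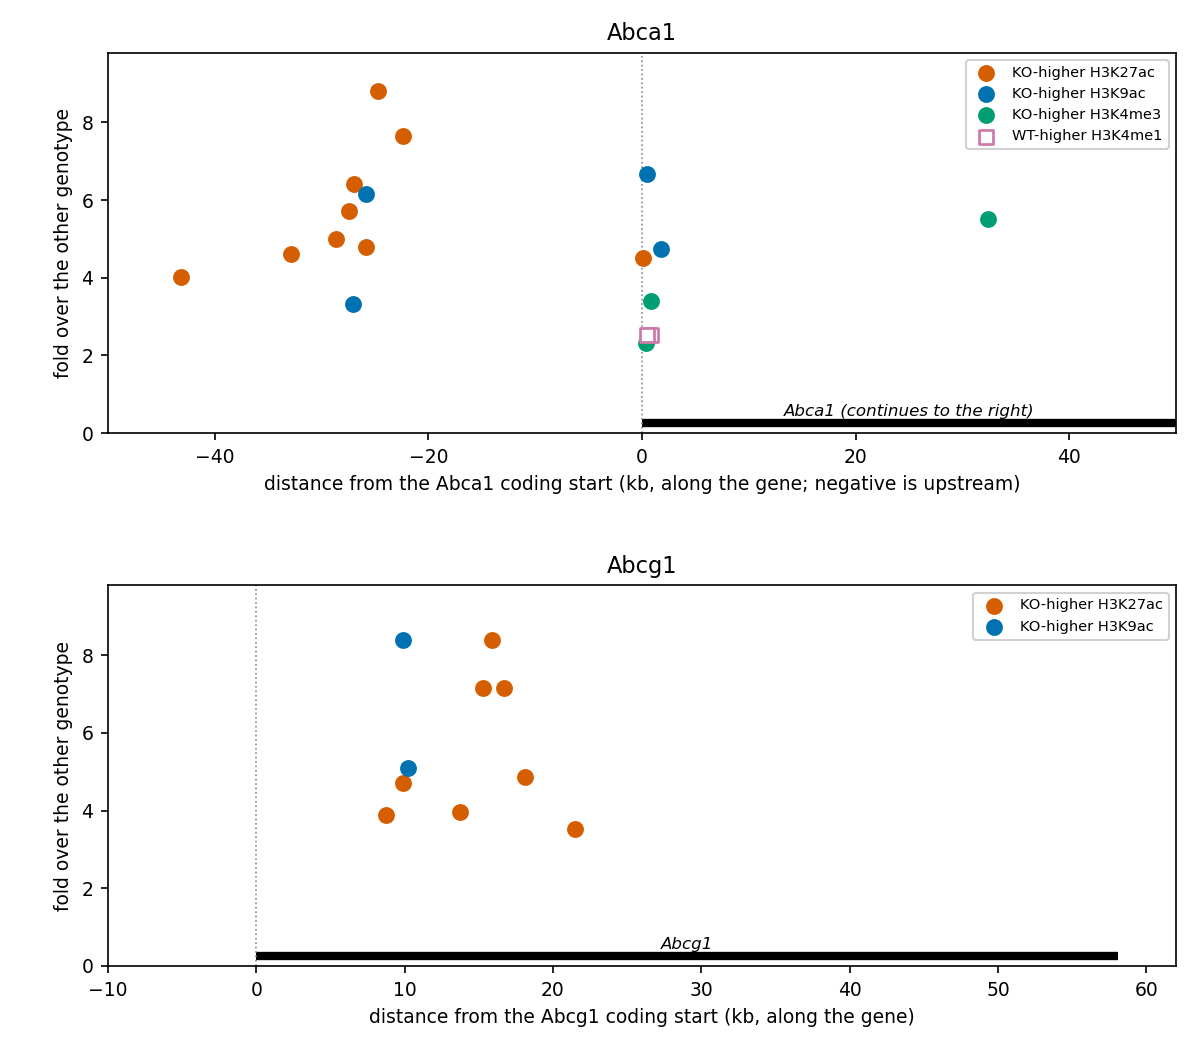
Differential regions of Abca1 (top) and Abcg1 (bottom), each point a region placed by the distance of its summit from the coding start in kb, against its fold over the other genotype. Filled circles are KO-higher and open squares WT-higher. The H3K27me3 region far inside Abca1 is not drawn, and the black bar is the gene. The Abca1 regions fall into a group at the promoter and a group 22.4 to 43.2 kb upstream, while all 10 Abcg1 regions lie between 8.7 and 21.5 kb inside the gene.

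Abcg1, a transporter that moves sterols to HDL and within cells, lies on the plus strand at chr17:31194643-31252722 (ENSMUSG00000024030). Its 8 KO-higher H3K27ac and 2 KO-higher H3K9ac regions were all intronic, from 8.7 to 21.5 kb past the start, and no list held a region at its annotated first promoter. Both H3K9ac regions were joined to another gene when starts of every biotype were used. The H3K27ac region of highest fold, chr17:31210414-31210685, had 76 in KO against 8.17 in WT, a fold of 8.40, and ranked 13th of 7111. Its neighbours on either side had 47 against 5.72 (fold 7.15) and 30 against 3.33 (fold 7.16). These 3 adjacent regions had the highest H3K27ac folds of the gene. The widest region, chr17:31203638-31205245, had the highest pileup, 102 against 20.8, a fold of 4.72. Inside it lay the H3K9ac region chr17:31204442-31204657, with 47.0 against 4.71, a fold of 8.39 that ranked 11th of 1883. The lowest H3K27ac fold of the gene, 3.52, had a −log10 q of 2.59.

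Of these Abcg1 intervals, 2 are printed on the plus strand of mm9. The first, chr17:31210414-31210685, holds the highest H3K27ac fold. The second, chr17:31212650-31212824, holds the closest DR4 match in the searched windows around the region summits of the 8 genes. The rest of the gene bodies was not searched for DR4. Capitals mark the same features as above, with at most 3 mismatches in the first interval and at most 2 in the second. The second interval also includes 6 bases before its region.
Abcg1 intron, highest fold: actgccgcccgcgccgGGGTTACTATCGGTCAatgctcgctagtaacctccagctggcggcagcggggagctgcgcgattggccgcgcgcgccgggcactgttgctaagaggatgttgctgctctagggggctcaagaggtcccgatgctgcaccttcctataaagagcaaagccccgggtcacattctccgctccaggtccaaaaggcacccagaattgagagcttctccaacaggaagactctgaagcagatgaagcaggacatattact
Abcg1 intron, closest DR4: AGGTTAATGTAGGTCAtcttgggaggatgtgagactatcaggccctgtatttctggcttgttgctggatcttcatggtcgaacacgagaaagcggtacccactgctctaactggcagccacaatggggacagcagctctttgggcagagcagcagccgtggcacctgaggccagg

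The interval of highest fold holds GGGTTACTATCGGTCA at chr17:31210430-31210445, which differs from the Abca1 promoter site by C10T alone. Of 7094 KO-higher H3K27ac regions searched over their whole extent, 5 held the 12 repeat bases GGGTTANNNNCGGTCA (0.0705%), and Abca1 and Abcg1 account for 2 of them, of which the Abcg1 site is one that prompted the search. The closest DR4 match, AGGTTAATGTAGGTCA at chr17:31212650-31212665, had 1 mismatch, and its region had 28 against 4.96, a fold of 4.86. In windows of 300 bases around the summit, DR4 matches with at most 2 mismatches were found in 4 of the 53 H3K27ac regions (7.55%, beside 4.16% of all regions of that list; in windows of 200 bases 1.89% beside 2.81%) and in none of the 38 H3K9ac regions (3.67% of all). DR1 matches were found in 2 of the 53 (5.23% of all) and in 1 of the 38 (4.94% of all). Most acetylated regions of these genes thus held no such match in the window, and a match is a description of the letters only.

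Abcg5 and Abcg8 encode the subunits of a single sterol transporter and start head to head on chromosome 17, with coding starts 110 bp apart. Abcg5 (ENSMUSG00000040505) runs left at chr17:85057574-85082351 and Abcg8 (ENSMUSG00000024254) runs right at chr17:85075642-85099673, counting an alternative start within Abcg5. Because the gene models overlap, the split of regions between them is uncertain: 12 of the 29 KO-higher regions given to Abcg5 have their summit inside both models. Together they held 46 KO-higher regions over 40.5 kb, without a dominant peak. Abcg5 had 15 regions of H3K27ac, 11 of H3K9ac and 3 of H3K4me3, and Abcg8 had 5, 10 and 2.

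Near the shared start both libraries carried strong acetylation and the folds were small. The H3K27ac regions on either side had 129 in KO against 69.5 in WT (fold 1.85, Abcg5 side) and 153 against 71.4 (fold 2.13, Abcg8 side). H3K9ac there had 137 against 71.0 (fold 1.92) and 123 against 59.0 (fold 2.06). Larger folds lay away from the start: the highest of Abcg8 was an H3K9ac region in an intron, chr17:85089067-85089287, 6.72 kb from the start, with 62.3 against 9.07 (fold 6.29, rank 65 of 1883). The highest H3K27ac fold of Abcg5, 4.02 (70 against 16.7), lay 23.0 kb into the gene, and its highest H3K4me3 fold, 4.78 (32.5 against 6.00), lay 7.65 kb in. Of the 15 Abcg5 H3K27ac regions, 4 had their summit in introns of the neighbour Dync2li1, with folds between 2.2 and 2.54. They were joined to Abcg5 by the nearest start, and their summits lay outside its gene model. The WT-higher H3K4me1 regions of Abcg5 had 37 against 12.5 (fold 2.82, the highest H3K4me1 fold of the 8 genes) at 2.37 kb, overlapping a KO-higher H3K27ac region, and 90 against 54.7 (fold 1.63) at 6.85 kb.

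The stretch between the starts is printed on the plus strand, chr17:85082352-85082460, because both promoters share it. It overlapped no region of any list and held no DR4 match at 3 mismatches and no exact 6-base unit.
Abcg5 and Abcg8 interval: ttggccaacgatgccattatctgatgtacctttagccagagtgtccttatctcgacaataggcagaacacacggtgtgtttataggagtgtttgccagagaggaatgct

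Lpcat3, which puts polyunsaturated fatty acids into phosphatidylcholine, lies at chr6:124613045-124654436 on the plus strand (ENSMUSG00000004270). Its KO-higher regions were 15 of H3K27ac and 11 of H3K9ac, spread from 0.56 kb before to 38.3 kb after its start, and no KO-higher H3K4me3 region. The highest H3K27ac fold, 4.40, had 68 against 14.7 at 6.03 kb, and the highest H3K9ac fold, 4.95, had 39.7 against 7.22 at 24.5 kb. The region nearest the start had 95 against 40.7 (fold 2.30). The gene's only WT-higher region was of H3K4me1, at 4.02 kb, with 47 against 16.2 (fold 2.79). At least 15 H3K27ac regions were found at 19 genes, Abcg5 and Lpcat3 included, and at least 11 H3K9ac regions at 13 genes, the same pair included, while the most at any gene were 33 and 27.

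**Figure D3:**
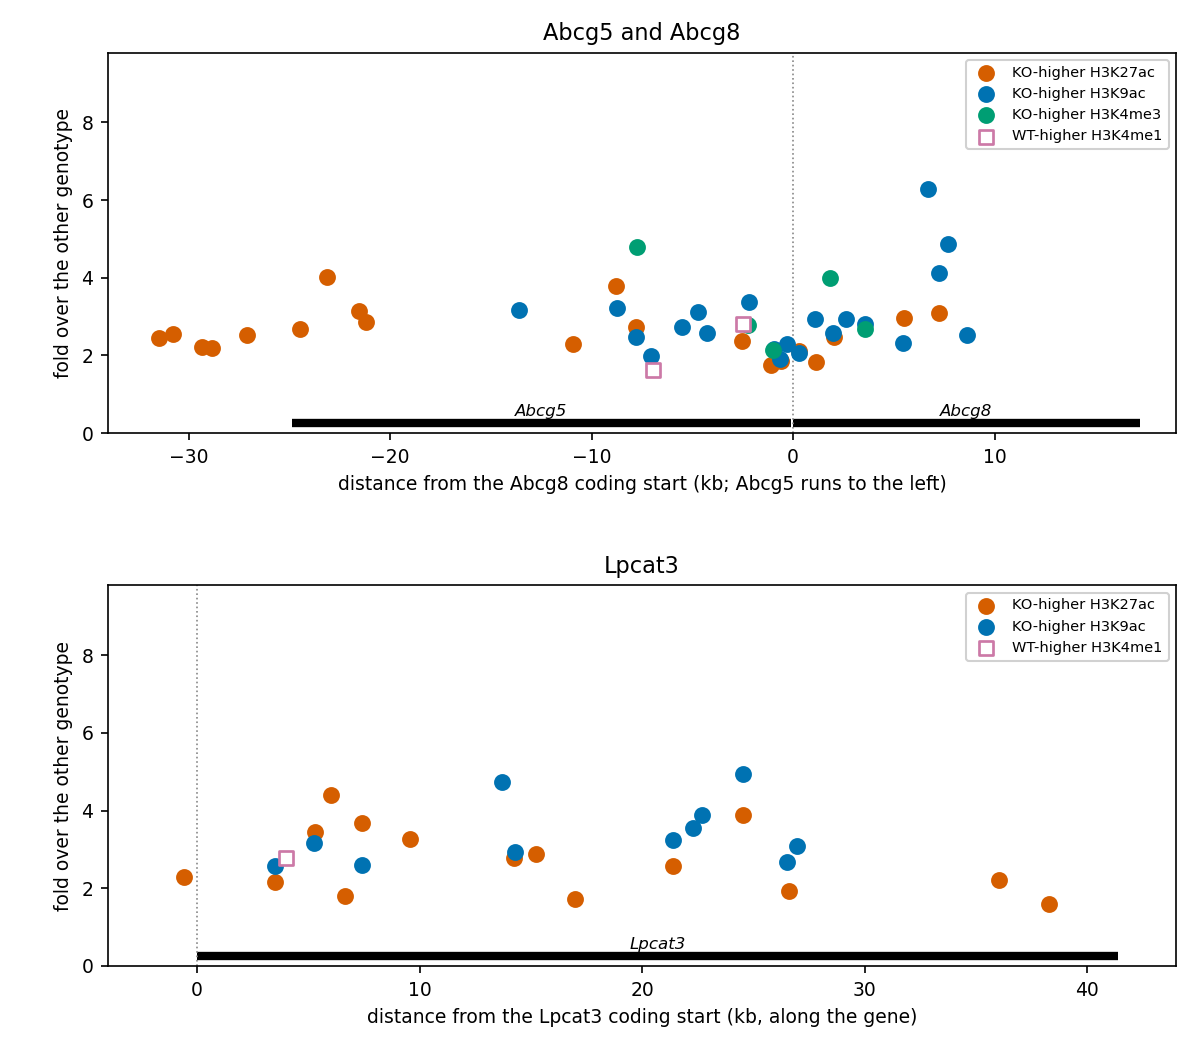
Differential regions of Abcg5 and Abcg8 (top, by distance in kb from the Abcg8 coding start, with Abcg5 running left) and of Lpcat3 (bottom, by distance from its coding start), against the fold over the other genotype. Filled circles are KO-higher, open squares WT-higher, and bars are genes, Abcg8 drawn from its coding start. Regions are spread over each locus, and the folds nearest the shared start of Abcg5 and Abcg8 are among the lowest.

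The receptors themselves had few differential regions. The nearest-start rule gave them short stretches, 12.95 kb for Nr1h2 and 15.47 kb for Nr1h3. Those of the other genes ran from 24.25 kb (Abcg8) to 159.97 kb (Abca1). Nr1h2, which encodes LXRβ, had 1 KO-higher H3K27ac region, 1.46 kb before its start (chr7:51810630-51810842), with 57 against 25.8, a fold of 2.16. Nr1h3, which encodes LXRα, had 1 WT-higher H3K4me3 region at its start (chr2:91034982-91035259), with 89 in WT against 50.4 in KO, a fold of 1.75 and a −log10 q of 2.98. Neither had an H3K9ac region. Mylip, whose product IDOL marks the LDL receptor for degradation and which is a textbook LXR target, had no region in any list within 50 kb (chr13:45485111-45507388).

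The genes also differed in how much signal the WT library held. At Abca1 and Abcg1 the WT background of the H3K27ac regions had medians of 5.95 and 5.51, and at Abcg5, Abcg8 and Lpcat3 the medians were 28.8, 37.7 and 35.4. The highest folds were found where the WT level was low, which is partly built in because the WT level divides the fold. The median fold of the 53 H3K27ac regions was 2.95, beside 2.52 for the whole list, that of the 38 H3K9ac regions 3.10 beside 2.91, and that of the 8 H3K4me3 regions 3.09 beside 4.32.

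**Figure D4:**
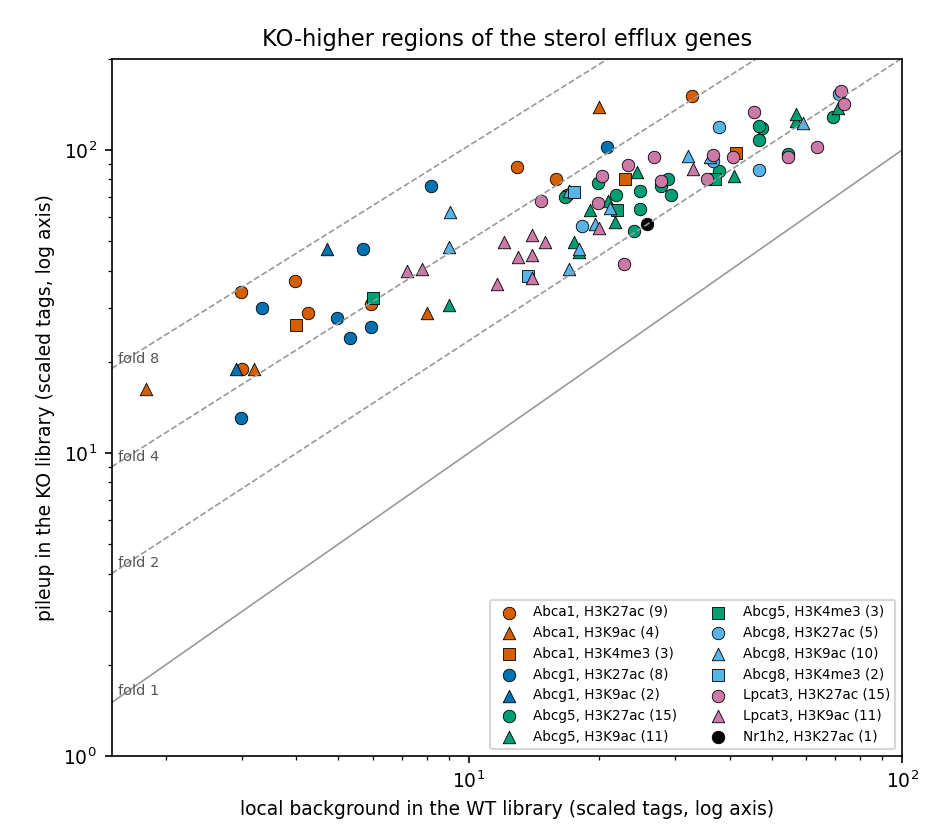
Pileup in the KO library (y, scaled tags) against the local background in the WT library (x, scaled tags) for the 99 KO-higher regions, both on log axes. Colour gives the gene, shape the mark, and lines mark folds of 1, 2, 4 and 8. Most Abca1 and Abcg1 points lie above the line of fold 4, with WT backgrounds as low as 1.8, and most points of Abcg5, Abcg8 and Lpcat3 lie between folds of 2 and 4.

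The marks differed at the same places. Among the 38 KO-higher H3K9ac regions, 23 (60.5%) overlapped KO-higher H3K27ac by at least 1 base, beside 38.9% of all H3K9ac regions, and they met 21 of the 53 H3K27ac regions (39.6%). Among the 8 H3K4me3 regions, 5 overlapped H3K27ac and 7 H3K9ac, beside 29.8% and 32.8% of all regions of that list. Among the 5 regions of WT-higher H3K4me1, 3 overlapped KO-higher H3K27ac (60%, beside 2.73% of all WT-higher H3K4me1 regions) and 3 with KO-higher H3K9ac (1.31% of all). These were the pair at the Abca1 promoter and the one at 2.37 kb in Abcg5.

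RNA was described for 3 of the genes in the authors' deposited table, which lists genes near WT-higher H3K4me1 regions and gives no RNA value for the other 5 genes. The sign is taken to mean KO over WT, which rests on how the column is named. In the authors' deposited table Abca1 had a log2 fold change of 2.83 (FDR 8.6e-113). Abcg5 had 1.23 (FDR 6.38e-56) and Lpcat3 1.04 (FDR 8.76e-45) in the authors' deposited table. On that reading all 3 were higher in KO, where 4.97% of the table's 1549 genes were higher and 9.62% lower at an FDR under 0.05. With the sign turned, all 3 would be lower in KO and the shares would change places. The RNA libraries are called intestine, and the sources used here do not say whether they came from the same neonates or from isolated cells.

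Other genes of the pathway were counted by list. Of 18 other LXR targets, KO-higher acetylation was found at 9 for H3K27ac (11.5% of all genes) and at 6 for H3K9ac (4%). None had WT-higher acetylation, beside 7.53% of all genes for H3K27ac and 7.58% for H3K9ac. With 18 genes that absence is close to the shares. The highest folds were at the fatty acid desaturases Scd2 (H3K9ac, 54.2 against 4.02, fold 11) and Scd1 (H3K27ac, 44 against 3.22, fold 10.7), at Mlxipl, the carbohydrate response factor ChREBP (H3K9ac, fold 6.49), and at Pnpla3 (H3K27ac, fold 6.19). WT-higher H3K4me1 lay at Pltp (fold 3.85), Scd1 (3.07), Scd2 (2.90) and Srebf1 (fold 2.6). In the authors' deposited table, of 4 of these targets listed, Scd1 (log2 fold change 1.85, FDR 1.32e-10) and Scd2 (1.72, FDR 1.23e-81) had the same sign as Abca1, while Pltp and Lpl did not pass.

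Of 11 LXR partners and corepressors, 4 had higher H3K27ac (11.5% of all genes) and 2 had higher H3K9ac (4%) in KO. These were Tbl1x (fold 6.37) and Tbl1xr1 (4.15), both subunits of the NCoR complex, Ncor1 itself (6.04) and the coactivator Ncoa2 (3.08). The marks do not read out the deleted exons and Ncor1 has no value in the RNA table, so the genotype labels are not checked by these data. Rxra, the dimer partner, had 1 WT-higher H3K27ac region (fold 2.23), and the coactivators Ncoa1 and Ncoa3 had WT-higher H3K4me3 (2.23 and 1.49). WT-higher H3K27ac was found at 7.53% of all genes and WT-higher H3K4me3 at 15.2%. Of 11 genes of sterol uptake, esterification and secretion, 8 had a KO-higher region of H3K27ac (11.5% of all genes) and 4 of H3K9ac (4%). The highest folds were at Apob (H3K9ac, 5.89) and Mttp (H3K9ac, 4.37), which build chylomicrons, then at the esterification enzyme Soat1 (H3K27ac, 2.98) and the apolipoprotein Apoa1 (H3K9ac, 2.71). WT-higher regions lay at Npc2 (H3K4me1, 3.64), Scarb1 (H3K4me3, 3.34) and Mttp (H3K4me1, 3.34).

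Markers of the epithelium moved the same way as the sterol genes. Of 11 epithelial markers, 10 had a KO-higher region of H3K27ac (11.5% of all genes) and 9 of H3K9ac (4%). None had WT-higher acetylation (7.53% of all genes for H3K27ac and 7.58% for H3K9ac). Vil1 stood apart, with KO-higher folds of 12.7 for H3K27ac, 11.5 for H3K9ac, 50.9 for H3K4me3 and 71.0 for the repressive mark H3K9me3, where no other epithelial marker passed 4.91 in any list. Its values are therefore not read as those of an epithelial marker, and whether extra copies of its sequence add to them was not tested. Without Vil1 the counts were 9 and 8 of 10. None of 8 immune and 10 stromal and vessel markers had a KO-higher acetylation region, beside 11.5% of all genes for H3K27ac and 4% for H3K9ac. With so few markers, none is close to these shares and is not read as a contrast with the epithelium. The part of a difference in epithelial content or maturity in the values of the sterol genes was not tested.

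**Figure D5:**
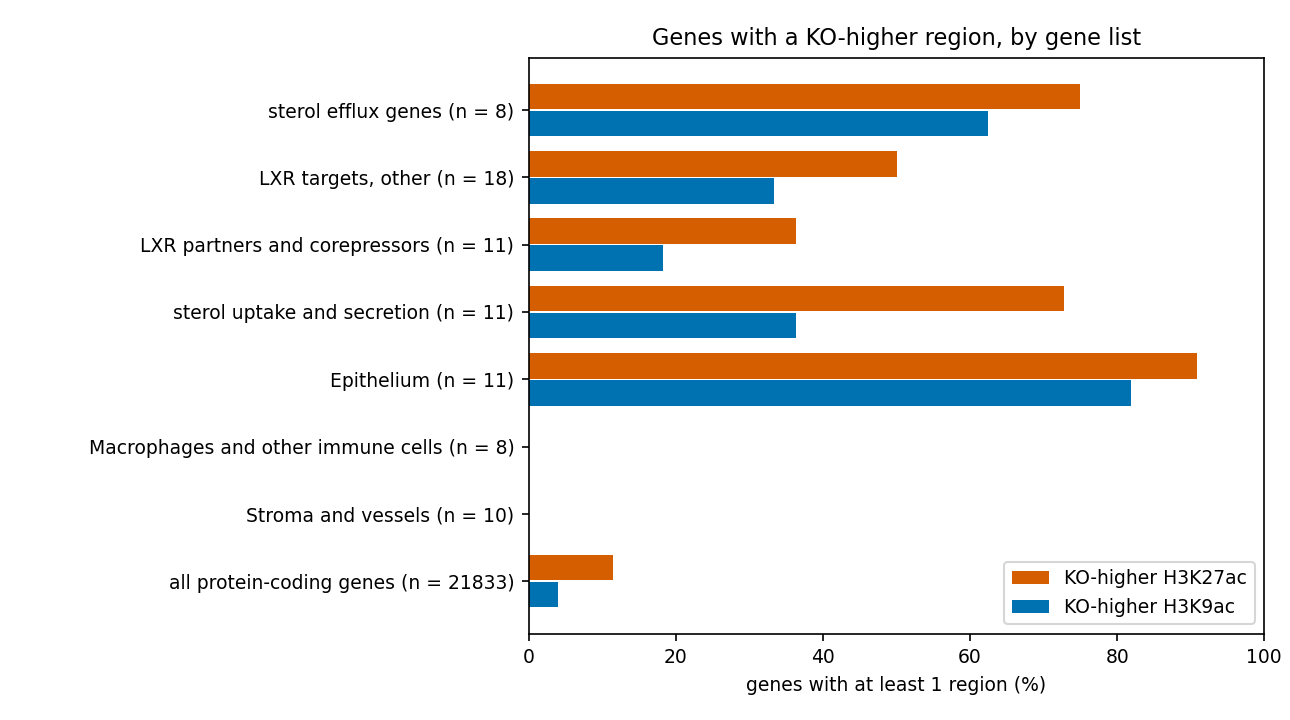
Share of genes with at least 1 KO-higher H3K27ac or H3K9ac region (bars, %) in the sterol efflux genes, the other gene lists and all protein-coding genes, with the number of genes in each. The share for H3K27ac is 75% in the sterol efflux genes, 90.9% in epithelial markers, 0% in immune and stromal markers and 11.5% in all genes.

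The genes most like Abca1 in their highest folds over the 10 lists, among 8369 genes with a region, were Scd2 (distance 1.69 on the log2 scale), Srebf1 (2.50), Scd3 (2.52), Areg (2.65) and Abcg5 (2.71). Scd2 had folds of 9.40 for H3K27ac and 11 for H3K9ac, WT-higher H3K4me1 at 2.90 and WT-higher H3K27me3 at 6.51. Those most like Abcg1 were Akr1b7 (0.03), Ppara (0.40), Gda (0.41), AI427809 (0.51) and Timm23 (0.59), each likewise listed for both acetylation marks, KO-higher, and for no other mark.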

How the data were processed

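The labels' protocols describe ChIP with the MAGnify system, single-end sequencing for 50 cycles and alignment to mm9. Bowtie2 2.2.9, MACS2 2.1.1, HOMER 3.12 and CASAVA 1.8.2 are listed in the submitters' processing notes, without their roles, whereas the headers give a tag size of 75 bp and MACS 2.0.10.20130419. Per the file headers, the authors called regions against the other genotype's library at q 0.05, with duplicates at a position reduced to 1 tag. The deposited values are a pileup (a signal in tags scaled to the smaller library), a fold (the ratio of pileup to local background, each plus 1) and −log10 of the p-value and q-value, per the file headers. That form of the fold recovers the authors' −log10 p within 0.01 for 23509 of 23511 regions (99.99%), so the background was computed from it. The KO lists of H3K4me1 and H3K27me3 repeat the WT regions (2774 of 2774 and 395 of 395), which leaves 10 lists, none of them KO-higher for these marks. For 1549 genes a deposited table adds an RNA comparison by the authors, as a log2 fold change with an FDR. Its 12 columns of single RNA libraries match no sample of the series and were not used, and the test behind the FDR is not stated there.

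Summits were joined to the nearest start of any transcript of 21833 protein-coding genes (GENCODE vM1, NCBIM37, the assembly of mm9) within 50 kb, leaving out chromosomes 18 and Y, and 23378 regions lay on the chromosomes used. Sequences come from NCBIM37. Python 3.11.15, pandas 2.3.3 and pysam 0.24.0 were used, and assignment, merging and motif search were tested on simulated data. Of each other gene list, up to 4 genes per direction with the highest fold of any active mark are named, and the 5 genes nearest to Abca1 and to Abcg1 by Euclidean distance of log2 highest folds. A gene that this rule names is not reported here. The members and lists were chosen with earlier results of these data known. With 1 library per mark and genotype no test was made. Alternatives were a −log10 q of at least 5, a fold of at least 4, other distances and gene models, merged regions, and other motif limits.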

Additional observations from a re-analysis of the deposited data

How the results depend on the processing

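The alternatives filter or reassign the same regions and reread the same log2 values, so no sign could change, but 2 orders turned. In windows of 200 bases the share of H3K27ac regions with DR4 was 1.89% at the sterol efflux genes and 2.81% in the whole list, and within 10 kb of a start the highest H3K27ac fold of Abcg1 passed that of Abca1. Under the other settings, 289 recomputed values stayed within 1.5 times the main count or at the same highest fold, and 52 moved. Many of the 289 could not move, among them counts of 0 under filters that only remove regions, and the reread RNA values. Their number is therefore no measure of stability. At a −log10 q of at least 5, the sterol efflux genes kept 1 WT-higher H3K4me1 region at 1 gene, and 0 of H3K4me3 at 0 genes and 0 of H3K27me3 at 0 genes. Among other LXR targets 0 had WT-higher H3K4me3, and among partners 0 had WT-higher H3K27ac, 0 KO-higher H3K9ac, 1 WT-higher H3K4me3 and 0 WT-higher H3K4me1. At a fold of at least 4, 16 KO-higher H3K27ac, 10 H3K9ac and 2 H3K4me3 regions were left at the sterol efflux genes, with 0 WT-higher H3K4me3 and 0 WT-higher H3K4me1 regions, at 0 genes each.

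Within 10 kb of a start there were 24 H3K27ac regions, and the highest H3K27ac folds were 4.50 at Abca1, 4.72 at Abcg1 and 3.79 at Abcg5. Lpcat3 H3K9ac then reached 3.17 and Abca1 H3K4me3 3.39. Partners had 0 genes with WT-higher H3K27ac, 1 with KO-higher H3K9ac and 0 with WT-higher H3K4me1, and the uptake and secretion list had 0 with KO-higher H3K4me3. By gene body and 5 kb, the sterol efflux genes had 2 WT-higher H3K4me3 regions, other LXR targets had 2 genes with WT-higher H3K27ac and 0 with WT-higher H3K4me3, and uptake and secretion 1 with WT-higher H3K27ac. Merging regions within 1 kb left 33 H3K27ac and 16 H3K9ac regions. With starts of every biotype, 43 KO-higher H3K27ac regions at 5 genes and 36 of H3K9ac at 4 genes were left. Abcg1 was the gene that lost its H3K9ac regions. With coding transcripts only (added after seeing the data), the H3K27me3 region of Abca1 was lost (0 regions, 0 genes).

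Counted within 1 kb, 5 of the WT-higher H3K4me1 regions met H3K27ac, 5 H3K9ac and 4 H3K4me3. DR4 matches in H3K27ac windows numbered 1 at 1 mismatch (1.89%, beside 0.395% of all), 1 in windows of 200 bases and 16 at 3 mismatches (added after seeing the data), where 28.2% of all such windows hold one. In H3K9ac windows 7 held DR4 at 3 mismatches. DR1 counts at 1 mismatch were 0 for H3K27ac, 0 for H3K9ac, 0 for H3K4me3 and 0 for H3K4me1. In windows of 200 bases they were 0 for H3K27ac and 0 for H3K4me1, and at 3 mismatches 15, 9 and 2 for H3K27ac, H3K9ac and H3K4me1.

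No paired analysis was possible because each mark and genotype has 1 library, and leaving out a library was not possible either. The highest folds of Abca1 rest on a WT background of 2.98 to 3.97 scaled tags and are imprecise. A gene without a region cannot be called unchanged.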

Other observations

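The 12 repeat bases of the Abca1 promoter site (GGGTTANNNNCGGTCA, both strands) were looked for along the chromosomes after that site and the Abcg1 site had been seen side by side, so this is a description of a pattern noticed in the data. Of 35 such sites, 6 lay inside a region of any list and 5 inside KO-higher H3K27ac, which covered 0.0616% of the bases searched. The promoter site of Abca1 and the Abcg1 site prompted the search, and without them 4 of 33 sites (12.1%) lay inside KO-higher H3K27ac. No site lay in a WT-higher acetylation region or in a region of either repressive mark. With so few sites, their absence from these lists is not read as a contrast.

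Beside Abca1 and Abcg1, the KO-higher H3K27ac regions with a site were at Srebf1 (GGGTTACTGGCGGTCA at chr11:60024140-60024155, region fold 2.70), which encodes the regulator of fatty acid synthesis SREBP1, and at Scd1 (GGGTTATTCTCGGTCA at chr19:44463173-44463188, region fold 5.78). The fifth was GGGTTACTGCCGGTCA at chr4:53276852-53276867 (region fold 2.91), nearest to AI427809 and 104 kb upstream of the Abca1 start, past the 50 kb used for assignment. The Scd1 site also lay in a WT-higher H3K4me1 region (fold 3.07), as did a site near Scd2 (GGGTTACTCTCGGTCA at chr19:44358734-44358749, fold 2.45). The 16 bases of the Abca1 promoter site, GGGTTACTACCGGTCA, occurred at 2 other places, both in no region of any list: 0.579 kb from a start of Fasn, the fatty acid synthase gene, at chr11:120686071-120686086, and 0.638 kb from a start of Mrps16, which is in none of the gene lists, at chr14:21212139-21212154. Srebf1, Scd1, Scd2 and Fasn stood in the list of other LXR targets used for the counts above. Whether a receptor is bound at any of these sites was not measured in this series.

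WT-higher H3K4me1 and KO-higher acetylation were listed at the same gene for Abca1, Abcg5 and Lpcat3, and among the other lists for Scd1, Scd2, Srebf1, Mttp and Krt20. The 3 sterol efflux genes in the RNA table are those with such an H3K4me1 region, because the table was built on that list.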
